A study of Mus musculus with 6 samples.

Results

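The 10 genes described here carry acetylcholine signalling in the brain: the muscarinic receptor genes Chrm1, Chrm2, Chrm3 and Chrm4, the nicotinic receptor subunit genes Chrna4, Chrna7 and Chrnb2, and the genes of acetylcholine handling Chat, Slc5a7 and Ache. They were chosen by symbol from the 23282 entries of the deposited count tables, and each symbol matched 1 entry. The counts come from RNA of forebrain hemispheres without cerebellum or olfactory bulbs from WT C57BL/6J male mice 8 to 10 weeks old. Of the 6 libraries, 3 were from mice fed a normal chow diet (NCD) and 3 from mice fed a high-fat diet (HFD), both for 10 days. The comparison asks which transcripts changed in the brain after a short time on the HFD, and all animals shared strain, sex and genotype. Nothing in the labels ties a library to 1 animal, so p-values measure the spread between these libraries.

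Acetylcholine is made from choline and acetyl-CoA by choline acetyltransferase, packed into vesicles, released, and broken down in the synaptic cleft, from which choline is taken back up into the terminal. In the forebrain it comes from basal forebrain neurons that project to cortex and hippocampus and from interneurons within the striatum. Target cells read it through muscarinic receptors, which couple to G proteins, and through nicotinic receptors, which are ion channels built from subunits around a central pore.

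Total counts per library were between 6842785 and 9689372. Levels are given as CPM, counts scaled to a common library size after edgeR's TMM normalization, and a count of 3, taken as the floor, was between 0.316 and 0.432 CPM. QuantSeq primes at the poly(A) tail and counts 3′ ends, and levels are compared here between libraries for a given gene, not between genes. As a description of the tissue, 7 neuronal markers summed to between 5478 and 5853 CPM, and 10 striatal markers to between 978 and 1085 CPM. Of the striatal markers, 8 passed the count filter, while Drd2 had 1 count and Gpr6 had 2 counts in all. The sums were not compared with another tissue, so the forebrain label was not tested. One library stood apart in its pituitary genes. The 8 pituitary genes listed, each with a count in the series, summed to 1277 CPM in HFD replicate 3, against 8.01 to 13.6 CPM in the NCD libraries and 4.75 and 5.9 CPM in the other HFD libraries. In the same library, the 11 midbrain and brainstem markers with a count in the series summed to 36.2 CPM, against 54.8 to 88.2 CPM on the NCD and 65.6 and 63.4 CPM in the other HFD libraries. At an unadjusted p under 0.05, which 3.68% of all genes tested met, 3 of 9 midbrain and brainstem markers tested were lower on the HFD (Th, Slc6a4 and Tph2), with Slc6a4 at 0.328 CPM in HFD replicate 2 and 0.137 CPM in HFD replicate 3. By the same measure, 6 of 7 blood cell markers were higher and 5 of 7 liver markers were lower. Hbb-bs and Hbb-b1 had similar counts in each library (1316 and 1298 in NCD replicate 1), as did Hbb-bt and Hbb-b2 (253 and 232). They may share reads, so the 6 are not taken as separate results. The 5 liver markers were all highest in NCD replicate 2, with Alb at 26.9 CPM there and 1.79 to 13.5 CPM elsewhere. The part of any of these lists in the results was not tested. Results on the 9 genes tested are given with and without HFD replicate 3. NCD replicate 3 also differed from the rest. It held the lowest level of 21.7% of all genes tested, beside 27.1% in HFD replicate 3 and 11.5% to 14% in the others. The ranges with each library left out are given at the end.

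The start-site sequences of 2 pairs of genes are shown because each pair belongs together in function: Chrna4 and Chrnb2 encode the subunits of the main high-affinity nicotinic receptor of the brain, and Chat and Slc5a7 mark the same cholinergic neurons. Each window holds 250 bases before and 50 after a start site that RefSeq gives on GRCm38.p6, written 5′ to 3′ on the gene's strand. The start used for Chrna4 lies 4402 bases inside the gene, downstream of its outermost RefSeq 5′ end, while those of Chrnb2 and Chat are at that end and that of Slc5a7 is 4 bases from it. Capitals mark the GC box, GGGCGG on either strand.
Chrna4, chr2:181039128-181039427 on the minus strand: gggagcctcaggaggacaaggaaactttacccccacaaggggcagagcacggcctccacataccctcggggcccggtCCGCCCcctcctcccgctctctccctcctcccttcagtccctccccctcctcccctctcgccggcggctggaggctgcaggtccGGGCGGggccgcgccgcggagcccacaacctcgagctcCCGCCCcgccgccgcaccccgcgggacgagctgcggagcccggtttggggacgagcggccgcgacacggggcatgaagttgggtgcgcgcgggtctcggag
Chrnb2, chr3:89764583-89764882 on the minus strand: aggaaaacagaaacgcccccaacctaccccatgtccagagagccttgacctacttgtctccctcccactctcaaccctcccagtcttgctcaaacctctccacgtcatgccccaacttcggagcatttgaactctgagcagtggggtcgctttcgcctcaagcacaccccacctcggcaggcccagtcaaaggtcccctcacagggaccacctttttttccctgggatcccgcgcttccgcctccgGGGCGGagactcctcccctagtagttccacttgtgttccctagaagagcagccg
Chat, chr14:32465860-32466159 on the minus strand: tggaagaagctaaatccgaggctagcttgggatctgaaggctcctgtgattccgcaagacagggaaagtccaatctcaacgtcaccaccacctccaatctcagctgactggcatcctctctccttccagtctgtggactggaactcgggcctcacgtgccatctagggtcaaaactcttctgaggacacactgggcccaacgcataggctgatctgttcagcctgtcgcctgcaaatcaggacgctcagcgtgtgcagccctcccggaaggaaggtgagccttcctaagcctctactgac
Slc5a7, chr17:54298985-54299284 on the minus strand: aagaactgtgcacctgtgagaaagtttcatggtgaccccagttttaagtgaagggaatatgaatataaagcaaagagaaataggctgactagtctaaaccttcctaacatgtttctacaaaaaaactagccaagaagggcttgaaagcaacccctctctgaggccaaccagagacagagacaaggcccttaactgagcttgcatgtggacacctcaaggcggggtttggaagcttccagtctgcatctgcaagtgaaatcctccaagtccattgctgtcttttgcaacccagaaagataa
The GC box occurred 3 times in the Chrna4 window and 1 time in the Chrnb2 window, and was in neither the Chat nor the Slc5a7 window. Windows were found for 9 of the 10 genes, all but Chrm1, and 6 of the 9, or 66.7%, held the letters GGGCGG, against 35.7% of the 32851 windows in the table. Their GC content ran from 44.7% for Slc5a7 to 74.3% for Chrna4, with a median of 52.7% over all windows.

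Between the diets, none of the cholinergic genes passed a test. Of the 10 genes, 9 passed the count filter, and 0 of these had a Benjamini-Hochberg adjusted p under 0.05 in the quasi-likelihood test of edgeR, where 0% of the 13771 genes tested did (DESeq2 called 2 of them, no cholinergic gene). At an unadjusted p under 0.05 there were also 0 of 9, against 3.68% of all genes tested, and DESeq2 and limma after quantile normalization gave 0 by both measures. A fold of at least 1.5 together with that p was met by 0 of 9, against 1.28% of all genes. On the log2 scale the fold change (HFD minus NCD), given below with its standard error (SE), lay between -0.29 for Slc5a7 and 0.26 for Chrm4, with a median of 0.00, beside a median of -0.0025 over all genes tested. Of the 9 genes, 5 were above and 4 below 0. The HFD and NCD libraries overlapped in each of the 9, while 8.81% of all genes tested had groups that did not overlap. The 10th gene, Chrna7, was under the filter.

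The intervals say how large a difference these libraries would still allow. For Chrm1, Chrm2, Chrm3, Chrnb2 and Ache, 5 of the 9 genes tested, the 95% interval of the fold change lay within 1.5-fold in both directions, as it did for 62.5% of all genes tested. For Chat, Slc5a7, Chrm4 and Chrna4 it did not, so a change of 1.5-fold in 1 direction could not be told from no change at this depth. All 9 intervals lay within 2-fold, as did 85.7% of those of all genes tested.

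**Figure D1:**
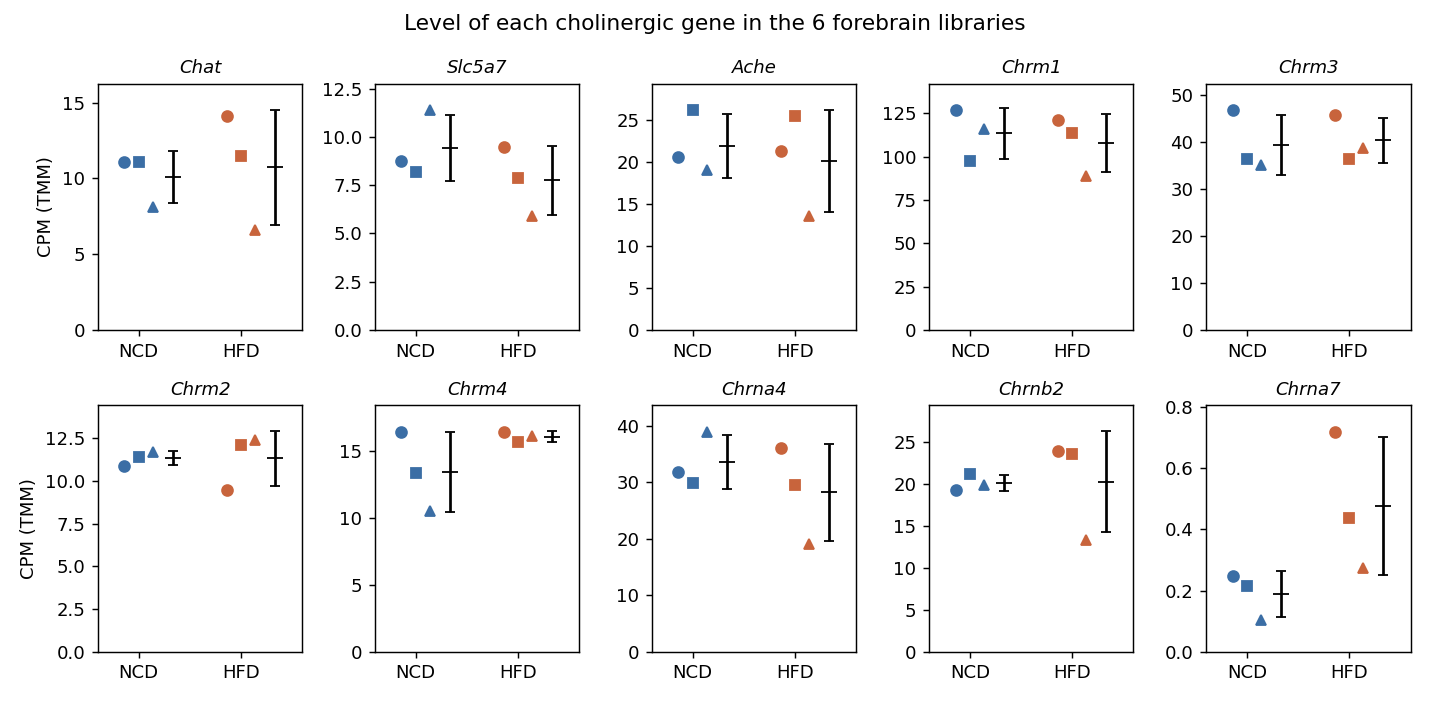
Level of each of the 10 genes in CPM (linear axis from 0) in the NCD libraries (blue) and HFD libraries (orange), where circles, squares and triangles are replicates 1, 2 and 3 and black bars are the mean and SD of 3 libraries. The HFD triangle is the lowest of the 6 points for Chat, Slc5a7, Ache, Chrm1, Chrna4 and Chrnb2, and all points of Chrna7 are under 1 CPM.

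Acetylcholine handling was described by its synthesis, its uptake and its breakdown. Chat, on chromosome 14 from 32408203 to 32465989 of GRCm38, encodes choline acetyltransferase, the enzyme that makes acetylcholine. It had 11.1, 11.1 and 8.11 CPM in NCD replicates 1, 2 and 3 and 14.1, 11.5 and 6.6 CPM in HFD replicates 1, 2 and 3. The highest and the lowest level were both in HFD libraries, and the NCD values lay between them. The NCD mean was 10.1 ± 1.73 CPM (SD, n = 3) and the HFD mean 10.7 ± 3.81 CPM (SD, n = 3). This is a log2 fold change of 0.09 (SE 0.25, edgeR adjusted p = 0.984) with a 95% interval of the fold from 0.74 to 1.53.

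Slc5a7, on chromosome 17 from 54273590 to 54299034, encodes the high-affinity choline transporter, which returns choline to the nerve terminal. Its level was 8.76, 8.2 and 11.4 CPM on the NCD and 9.5, 7.87 and 5.91 CPM on the HFD. The groups overlapped, with the highest level in NCD replicate 3 and the lowest in HFD replicate 3. Its log2 fold change of -0.29 (SE 0.23, edgeR unadjusted p = 0.232, adjusted p = 0.979) was the lowest of the 9 genes, with a fold between 0.584 and 1.15. Chat made up 41.6% of their summed counts in NCD replicate 3 (95% Wilson interval 34.8% to 48.8%) and between 52.7% and 59.8% in the other 5 libraries. These intervals cover counting error only, which is less than the spread between replicates, and the share was not tested between libraries.

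The vesicular acetylcholine transporter gene Slc18a3, on chromosome 14 from 32462438 to 32464850, lies inside the Chat gene on the same strand without sharing exon sequence with it. The NCD libraries held 12, 15 and 17 reads of it and the HFD libraries 20, 13 and 11. Its log2 fold change was 0.22 (SE 0.44), with a 95% interval from -0.71 to 1.16 on the log2 scale, so the diets could not be told apart at this depth.

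Ache, on chromosome 5 from 137287519 to 137294466, encodes acetylcholinesterase, which splits acetylcholine in the cleft. It had 20.6, 26.2 and 19 CPM on the NCD and 21.3, 25.5 and 13.6 CPM on the HFD. Replicate 2 of each diet was the highest of its group, and HFD replicate 3 was the lowest of the 6. Between the diets the log2 fold change was -0.12 (SE 0.20, edgeR adjusted p = 0.979), with a fold between 0.69 and 1.23. An exon of Gm42456 overlaps 98 bases of Ache on the other strand, and the gene Ufsp1 begins 163 bases beyond its 3′ end. The use of strand in the authors' counting is not given in the sources used here.

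Of the muscarinic receptors, M1 and M3 couple to Gq and raise phospholipase C activity, while M2 and M4 couple to Gi and lower cyclic AMP. Chrm1, on chromosome 19 from 8663789 to 8683587, encodes M1, the main muscarinic receptor of cortical and hippocampal pyramidal neurons. It had 127, 97.6 and 116 CPM on the NCD and 121, 114 and 89 CPM on the HFD. The lowest level was again in HFD replicate 3, although NCD replicate 2 was close above it. With counts of 647 to 1105 per library it was the gene with the narrowest interval of the 10. Its log2 fold change was -0.07 (SE 0.13, edgeR adjusted p = 0.979), a fold between 0.786 and 1.15. A miscellaneous RNA, Gm22820, overlaps 329 exonic bases of Chrm1 on the other strand.

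Chrm3, on chromosome 13 from 9875486 to 10360847, encodes M3. It had 46.9, 36.4 and 35.2 CPM on the NCD and 45.8, 36.5 and 38.9 CPM on the HFD. Replicate 1 of both diets was the highest of its group, and the remaining 4 libraries were within 35.2 to 38.9 CPM. A log2 fold change of 0.03 (SE 0.14, edgeR adjusted p = 0.99) left a fold between 0.831 and 1.26.

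Chrm2, on chromosome 6 from 36388084 to 36528414, encodes M2, which sits on cholinergic terminals as an autoreceptor as well as on target cells. The levels were 10.9, 11.4 and 11.7 CPM on the NCD and 9.5, 12.1 and 12.4 CPM on the HFD, so the HFD values lay on both sides of the NCD values. Both means were 11.3 CPM, with an SD of 0.426 on the NCD and 1.59 on the HFD (n = 3 each). This gave a log2 fold change of 0.00 (SE 0.19, edgeR adjusted p = 0.999), with a fold between 0.764 and 1.31. At its 5′ end Chrm2 shares 142 exonic bases with 9330158H04Rik on the other strand.

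Chrm4, on chromosome 2 from 91927249 to 91928688, encodes M4, which is abundant in striatal projection neurons. It had 16.4, 13.3 and 10.5 CPM on the NCD and 16.4, 15.6 and 16.1 CPM on the HFD. The HFD libraries lay close together, with 16 ± 0.394 CPM (SD, n = 3), and NCD replicates 2 and 3 were below all of them, while NCD replicate 1 was level with the highest. Among the 9 genes tested Chrm4 had the highest log2 fold change, 0.26 (SE 0.18, edgeR unadjusted p = 0.167, adjusted p = 0.979), with a fold between 0.919 and 1.57. Leaving out NCD replicate 1 gave a log2 fold change of 0.43 (edgeR unadjusted p = 0.0457, adjusted p = 0.998), and without NCD replicate 3 it was 0.11. RefSeq ends Chrm4 1147 bases beyond the GENCODE end, and the gene Mdk lies 1117 bases beyond the GENCODE end. The 10 striatal markers summed to 1085, 1028 and 978 CPM in NCD replicates 1, 2 and 3, the same order as Chrm4, and to 1057, 1010 and 1056 CPM on the HFD, and their part in the level of Chrm4 was not tested. In bulk RNA, fewer cells of a type and less RNA per cell cannot be told apart.

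The nicotinic subunits Chrna4 and Chrnb2 assemble into the α4β2 receptor, the high-affinity nicotine binding site of the brain. Chrna4, on chromosome 2 from 181018380 to 181043546, had 31.7, 29.9 and 38.9 CPM on the NCD and 36.1, 29.4 and 19 CPM on the HFD. The range of the HFD libraries was wider than that of the NCD libraries and ended lower. The log2 fold change was -0.25 (SE 0.19, edgeR unadjusted p = 0.197, adjusted p = 0.979), a fold between 0.639 and 1.1. It was -0.04 without HFD replicate 3. Leaving out HFD replicate 1 instead gave -0.46 at an unadjusted edgeR p of 0.0268. The adjusted p was 0.839 there and not lower in any alternative. GENCODE ends Chrna4 3931 bases beyond the RefSeq end, with the gene Col20a1 17 bases further on.

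Chrnb2, on chromosome 3 from 89746195 to 89764632, had 19.3, 21.2 and 19.8 CPM on the NCD and 23.9, 23.5 and 13.3 CPM on the HFD. Here HFD replicates 1 and 2 were above every NCD library and HFD replicate 3 was below every one. With all libraries the log2 fold change was 0.01 (SE 0.19, edgeR adjusted p = 0.997), and it was 0.24 (95% interval -0.06 to 0.53 on the log2 scale) without HFD replicate 3. In GENCODE, 1365 exonic bases of Chrnb2 between 89746565 and 89753446 are shared with exons of Adar on the other strand, near the 3′ end where QuantSeq reads lie. RefSeq ends Chrnb2 at 89753448, before this stretch, and the annotation behind the counts is not given in the sources used here. Adar had 510 to 901 counts per library, against 97 to 215 for Chrnb2. Its level was also lowest in HFD replicate 3, at 70.1 CPM against 83.6 to 98.5 CPM elsewhere. The part of Adar reads in the counts of Chrnb2 was not tested. Chrna4 made up between 55.6% and 66.2% of the summed counts of both genes, and the 58.7% in HFD replicate 3 (95% Wilson interval 52.3% to 64.8%) was within that range, although both genes had their lowest level there.

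Chrna7, on chromosome 7 from 63098692 to 63212569, encodes α7, which forms receptors from copies of itself and is known from hippocampal interneurons. NCD replicates 1, 2 and 3 held 2, 2 and 1 counts of it and HFD replicates 5, 4 and 2 counts, so the NCD libraries were all under the floor of 3 counts and 2 HFD libraries were above it. Scaled to library size, each HFD library was above each NCD library, on 16 counts in all. Groups also did not overlap in 8.81% of all genes tested, which were past the filter. Of Chrna7, HFD replicate 3 and NCD replicate 1 held 2 counts each, or 0.275 and 0.247 CPM, so library size alone set their order. The ratio of the summed, scaled counts was 2.53 with an exact 95% counting interval from 0.81 to 9.28, which includes no difference. In the edgeR fit without a filter its unadjusted p was 0.296 and its adjusted p was 0.941.

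**Figure D2:**
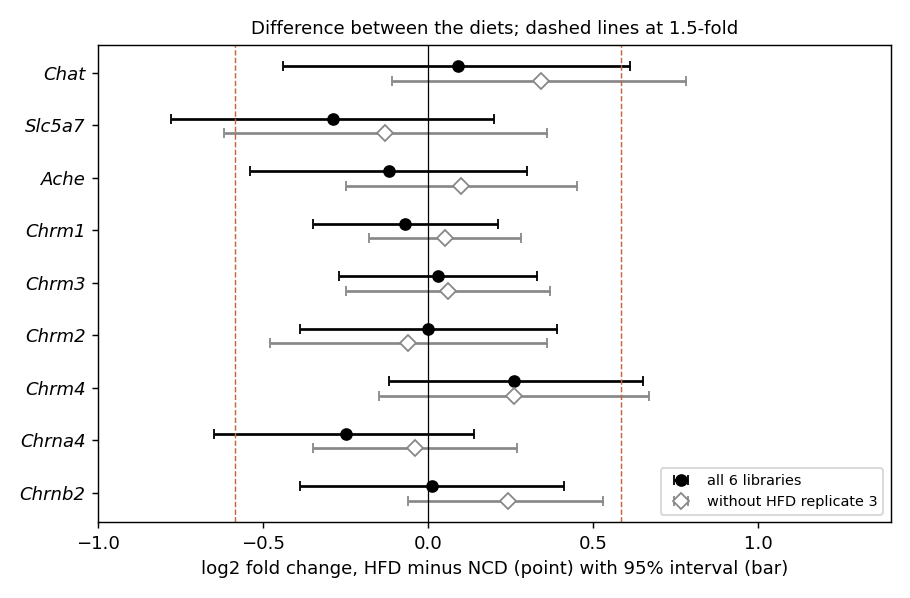
Difference between the diets for the 9 genes tested, as log2 fold change (HFD minus NCD) with its 95% interval, from all 6 libraries (filled circles) and without HFD replicate 3 (open diamonds), with dashed lines at 1.5-fold. Every interval includes 0, and without that library the point moves from below to above 0 for Chrm1 and Ache and from 0.00 to -0.06 for Chrm2.

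Several of these genes had their lowest level in the same library. HFD replicate 3 held the lowest of the 6 levels for 6 of the 9 genes tested, or 66.7%, namely Chat, Slc5a7, Ache, Chrm1, Chrna4 and Chrnb2, while 27.1% of all genes tested had their lowest level there. The median deviation from a gene's own mean in this library was -0.50 on the log2 scale over the 9 genes and 0.01 over all genes tested. In the other 5 libraries the median over the 9 genes was between -0.01 and 0.17. Chrm2, Chrm3 and Chrm4 did not take part, with deviations of 0.13, -0.03 and 0.14 in HFD replicate 3. The 10 genes summed to 215 CPM in HFD replicate 3 and to between 256 and 298 CPM in the other libraries.

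Without HFD replicate 3, 0 of the 9 genes had an adjusted or an unadjusted p under 0.05 (edgeR). Their log2 fold changes then ran from -0.13 for Slc5a7 to 0.34 for Chat, with a median of 0.06. Chat moved most among the members with the library left out, from 0.09 to 0.34 (95% interval -0.11 to 0.78), followed by Chrnb2 from 0.01 to 0.24 and Ache from -0.12 to 0.10. The same library had the lowest summed midbrain and brainstem markers and the highest summed pituitary genes of the series. It also had the lowest sums of thalamus markers (675 CPM against 700 to 828) and medial habenula markers (208 CPM against 230 to 298). Single markers were mixed, with 3 of 9 thalamus and 3 of 8 medial habenula markers tested lowest there. Summed astrocyte markers were lowest there too (4423 CPM against 4622 to 4891), so a low sum was not particular to those regions. Summed striatal, cortex and hippocampus, neuronal, oligodendrocyte and microglia markers were not lowest there. The part of any of these lists in the levels of the cholinergic genes was not tested. The 8 listed genes of cholinergic neuron identity, of which Gbx1 was at 0 in every library and 5 were tested, summed to 12.9 CPM in HFD replicate 3, to 15.4 and 18.1 CPM in the other HFD libraries and to between 16.2 and 18.2 CPM on the NCD. Of the 5 tested, Isl1 was lowest in that library, and Lhx8, Gbx2, Ngfr and Slc18a3 were lowest in other libraries.

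**Figure D3:**
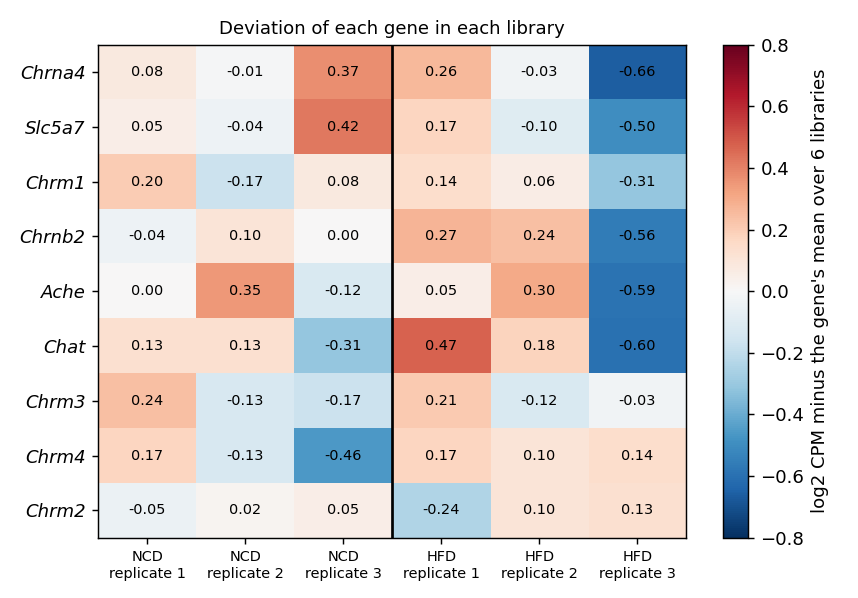
Deviation of the log2 CPM of each of the 9 genes tested from its own mean over the 6 libraries (colour and printed value), with NCD libraries left and HFD libraries right of the line. The column of HFD replicate 3 holds values from -0.66 to -0.31 for the upper 6 genes and from -0.03 to 0.14 for Chrm3, Chrm4 and Chrm2.

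Patterns over the 6 libraries were compared as the root mean square difference of centred log2 CPM, where 0 is an identical pattern. The closest pair among the 9 genes was Chrna4 and Slc5a7, at 0.0856 on the log2 scale, with both highest in NCD replicate 3 and lowest in HFD replicate 3. Chrnb2 was closest to Ache, at 0.146, and Chrm3 to Chrm4, at 0.166. Chat and Slc5a7, the markers of cholinergic neurons, differed by 0.353, and Chrna4 and Chrnb2 by 0.203. Among the other 13770 genes tested, the closest was Spen for Chrna4, at 0.0326, Dusp15 for Chrnb2, at 0.0436, Mpp2 for Ache, at 0.0609, and Lrfn2 for Chrm1, at 0.0406. For Chrm2 it was Polr2i, at 0.0256, for Chrm3 Man2c1, at 0.0497, and for Chrm4 Neurod1, at 0.0402. The 3 closest to Chat were Zbtb20, at 0.0709, Slc13a4, at 0.0711, and Pltp, at 0.0784, and the 3 closest to Slc5a7 were Phc2, at 0.0465, Kcnc1, at 0.0524, and Gys1, at 0.0541. With 6 libraries and this many genes searched, a close pattern describes these libraries only.

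Other genes of the pathway were taken from 4 lists, with 53 genes in the tables, of which 40 passed the filter. At an unadjusted p under 0.05, 0 were higher and 0 were lower on the HFD by the edgeR test, against 3.68% of all genes tested, and 0 had an adjusted p under 0.05. The diets did not overlap in 0 of the 40, against 8.81% of all genes tested. HFD replicate 3 held the lowest level of 10 of the 40, or 25%, beside the 27.1% of all genes tested. Their median log2 fold change was -0.04 and their smallest unadjusted p was 0.098. Of the 14 other muscarinic and nicotinic subunits, 6 were tested, with log2 fold changes from -0.34 for Chrm5, the M5 receptor, to 0.76 for Chrnb4, a subunit of habenular and ganglionic receptors. The value of Chrnb4 (SE 0.72) rests on few reads, with 0, 5 and 12 counts in the NCD and 9, 11 and 5 counts in the HFD libraries. Of the subunits known from muscle, Chrnd and Chrng were at 0 in every library, Chrne had 4 and Chrnb1 34 counts in all, and Chrna1 passed the filter with 9 to 26 counts per library. Of the cochlear subunits, Chrna9 was at 0 and Chrna10 had 10 counts in all.

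In acetylcholine handling beyond the 10 genes, 7 of 11 were tested. Bche encodes butyrylcholinesterase, a second enzyme that splits acetylcholine. It had 4.2, 6.69 and 5.06 CPM on the NCD and 4.32, 4.15 and 2.34 CPM on the HFD. The groups overlapped, and its log2 fold change of -0.56 (SE 0.32, edgeR unadjusted p = 0.098, adjusted p = 0.979) was the lowest of the list. Without HFD replicate 3, which held its lowest level, it was -0.33. Slc18a3 had the highest value of the list. Chka, a choline kinase that draws choline into phosphatidylcholine synthesis, had a log2 fold change of -0.15, and of -0.42 with an unadjusted p of 0.0406 and an adjusted p of 0.839 without HFD replicate 1.

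Of the 10 genes in the tables that fold, traffic or modulate nicotinic receptors, 9 were tested. Their log2 fold changes ran from -0.21 for Lypd6b to 0.14 for Lypd1. All 9 had 95% intervals within 1.5-fold, as did 62.5% of all genes tested. The width of an interval depends on a gene's counts, and genes of like counts were not compared. Tmem35, whose product is a chaperone of α7 assembly, was at 152 ± 0.766 CPM (SD, n = 3) in the NCD libraries and at 146 ± 5.58 CPM (SD, n = 3) on the HFD. Its log2 fold change was -0.05 (SE 0.10). Of the 18 genes of muscarinic transduction, all were tested and 16 had intervals within 1.5-fold, again beside 62.5% of all genes tested. Their log2 fold changes ran from -0.44 for Kcnq3, a subunit of the M current channel, to 0.14 for Kcnj3. The latter encodes a subunit of the inwardly rectifying channel that M2 and M4 open. Gnaq, the G protein of M1 and M3, had a mean of 365 CPM on the NCD and 366 CPM on the HFD, with SDs of 29.6 and 14.4 (n = 3 each).

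**Figure D4:**
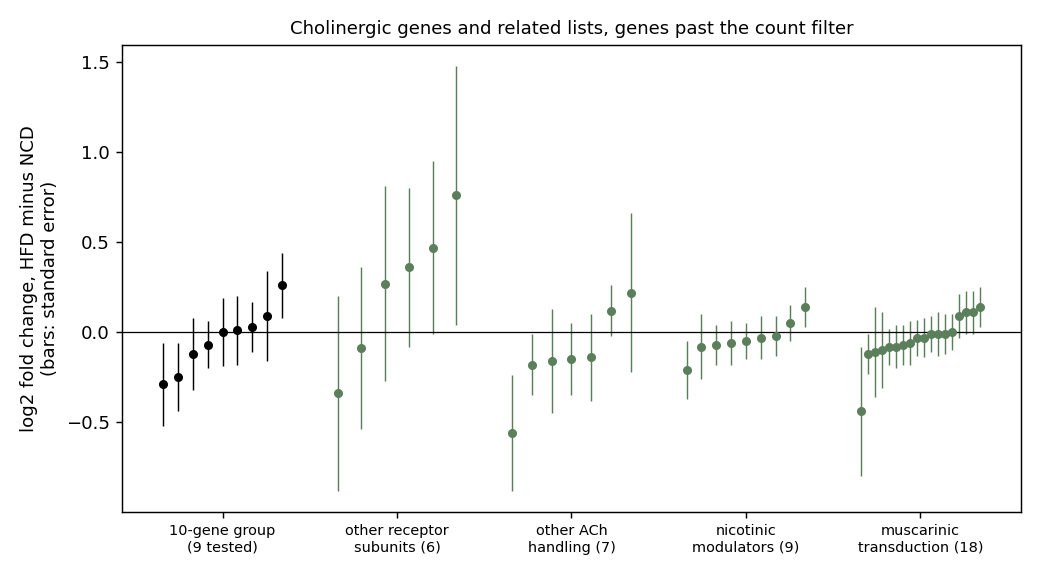
Log2 fold change (HFD minus NCD) with its standard error for the 9 genes tested of the 10 (black) and for the genes tested of 4 related lists (green), sorted within each list. The spread is widest for the other receptor subunits, from -0.34 to 0.76, and narrowest for the nicotinic modulators, from -0.21 to 0.14.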

How the data were processed

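RNA of forebrain hemispheres was measured in 6 QuantSeq 3′ libraries, 3 per diet. Bowtie2 was used by the authors to align adaptor-trimmed reads to mm10, and Bedtools coverage to count unique and multiple alignments per gene. The deposited values are raw counts (whole numbers), so the quantile normalization that the methods name was not yet applied. The annotation, strand setting and tool versions are not given in the sources used here. Each entry names a gene, and 4346 entries had no count in any library.

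The tests were run in edgeR 4.0.16 under R 4.3.3. filterByExpr (minimum count 10, minimum total count 15) kept 13771 genes, libraries were scaled with TMM, and the diets were compared with glmQLFit and glmQLFTest without a covariate, with Benjamini-Hochberg adjustment over all genes tested. The SE of a log2 fold change was its size over √F, and 95% intervals used the degrees of freedom of the fit. Genes under the filter came from the same fit without it. Groups follow the sample titles. Pairs of replicates gave a chi-square between 3.47 and 16 times its degrees of freedom, above sampling noise. The floor of 3 counts and the intervals of shares and ratios cover counting error only.

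The members and gene lists were chosen with earlier results of these data known. Named genes are the 10 members, Slc18a3, the extremes of each pathway list, those with an unadjusted p under 0.05 and the closest patterns. Tmem35, Gnaq, Adar, Drd2, Gpr6 and the muscle and cochlear subunits were chosen after their values were seen. Alternatives were DESeq2 1.42.0, quantile normalization of log2(CPM + 1) with limma 3.58.1, scaling by library size alone or by upper quartiles, a replicate block, robust estimation, no filter, a minimum of 10 counts in every library, leaving out the 3 genes above 2% of counts, and leaving out each library. The statistics were also run on simulated counts with 200 genes changed, drawn with the fitted spread between replicates. No simulated library was set apart as HFD replicate 3 was, so that run cannot say how the tests behave with such a library. GENCODE vM21 on GRCm38, the build of mm10, gave gene positions, and RefSeq on GRCm38.p6 gave start-site windows. Plots were made with Python 3.11.15 and matplotlib 3.10.9.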

Additional observations from a re-analysis of the deposited data

How the results depend on the processing

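With 3 libraries per diet, the adjusted p of the 9 genes tested stayed above 0.05 under all alternatives. The number of these genes with an unadjusted p under 0.05 was 0 under every other alternative and between 0 and 1 with a library left out, with Chrm4 past it without NCD replicate 1 and Chrna4 without HFD replicate 1. For the other cholinergic genes it was also between 0 and 1, with Chka past it without HFD replicate 1. The median log2 fold change of the 9 genes ran from -0.14 to 0.06 with a library left out. Over all genes, those with an adjusted p under 0.05 numbered 2 with DESeq2, 23 with no filter and between 0 and 3 with a library left out (the 3 without NCD replicate 3), and those with an unadjusted p under 0.05 numbered 902 with no filter and between 411 and 773 with a library left out, the highest without HFD replicate 1. The no-filter fit tested 18936 genes. Without a filter, 156 genes were higher and 240 lower with an unadjusted p under 0.05 and a fold past 1.5, against 73 and 103 with it.

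The sign turned for genes whose difference was near 0. Chrm2 had a log2 fold change of 0.00 with quantile normalization, -0.02 with library size alone and 0.00 with the replicate block, and ran from -0.06 to 0.11 with a library left out. Chrnb2 had -0.02 with quantile normalization, 0.00 with library size alone and -0.02 with the replicate block, and ran from -0.11 to 0.24. With a library left out, Chrm1 ran from -0.17 to 0.05, Chrm3 from -0.06 to 0.17, Chat from -0.14 to 0.34 and Ache from -0.33 to 0.10. Chrm4, Chrna4, Slc5a7 and Chrna7 kept their sign under all alternatives that gave a value, with 0.11 to 0.43, -0.46 to -0.04, -0.45 to -0.13 and 0.89 to 1.54 with a library left out. The log2 fold change of Chrna7 was 0.33 with quantile normalization of log2(CPM + 1), a scale that understates low genes. Chrna7 gave no value with at least 10 counts in every library.

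For same-numbered libraries, the correlation of their deviations from the diet means was -0.0295, 0.0515 and -0.0574 for numbers 1, 2 and 3. For libraries of different numbers it ran from -0.0631 to 0.0789. These values cannot say whether same-numbered libraries were handled together, and the labels do not say so. With the replicate block, 0 of the 9 genes had an unadjusted p under 0.05, and the block changed no call on the cholinergic genes.

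The comparison is limited most for genes with few counts, and why a gene had few counts was not tested. Chrna7 had at most 5 counts in a library, and its counting interval holds both no difference and a 2-fold one.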
